A study of Mus musculus with 45 samples.

Results

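The mRNA of 7 genes for the breakdown, salvage and transport of adenosine, other purines and uridine was followed in the nucleus accumbens. This part of the ventral striatum belongs to the reward pathway. No purine, protein or enzyme activity was measured. The set was named as 9 genes: Ada, Xdh, Upp2, Adk, Nt5e, Slc29a1, Hprt and the receptor genes Adora1 and Adora2a. The genes were chosen by earlier results of these same data, namely the CIE against Ctrl differences of Ada, Xdh and Upp2 at 0 h and 8 h. Members were all probesets whose platform annotation gave one of the 9 symbols alone. This rule found 16 probesets of 45037, for 7 of the 9 genes. No probeset carried the symbol Adora1 or Adora2a alone in the annotation used, and both receptor genes are not analysed here.

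Each of the 45 Affymetrix arrays measured total RNA from 1 adult male C57BL/6J mouse. CIE mice had 4 cycles of ethanol vapor at 10 to 13 mg/l of air, 16 h per day for 4 days, with 7 days of abstinence between cycles, and were injected before each cycle with ethanol (1.6 g/kg) and with pyrazole (1 mmol/kg), which blocks alcohol dehydrogenase. Ctrl mice breathed air in the same kind of chamber and were given saline and the same dose of pyrazole, so that every group had received pyrazole. Mice were killed directly after the last vapor session (0 h) or 8 h, 72 h or 7 d later. There were 6 arrays in each group, except for Ctrl 8 h, CIE 8 h and CIE 72 h with 5 arrays each. No genotype differed between groups, and no group was without pyrazole.

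Adenosine is formed outside the cell when Nt5e (CD73) removes the phosphate of AMP, and it acts on receptors that are dense in the striatum. The equilibrative transporter Slc29a1 (ENT1), which ethanol is known to inhibit, carries it across the membrane. Inside the cell Adk returns it to AMP, while Ada deaminates it to inosine and so commits it to breakdown. Xdh oxidises hypoxanthine and xanthine to uric acid, Hprt recycles hypoxanthine and guanine, and Upp2 splits uridine on the pyrimidine side of the same metabolism.

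On build GRCm38.p6 of the RefSeq gene table, Ada lay at chr2:163726571-163750239, Upp2 at chr2:58566317-58795846 and Xdh at chr17:73883895-73950397. Adk lay at chr14:21052574-21448569, Nt5e at chr9:88327609-88372089, Slc29a1 at chr17:45585200-45599618 and Hprt at chrX:52988078-53021660. The 250 bases before a RefSeq start are printed for Ada, Upp2 and Nt5e, 3 of the 4 genes with the larger differences at 0 h described below. The fourth is Xdh, which had no entry in the promoter table used here. Each is given 5′ to 3′ on the strand of its gene, with matches to the 6 motifs searched in capitals. For Ada the window was chr2:163750240-163750489 (minus strand), for Nt5e chr9:88327359-88327608 (plus strand), and for Upp2 chr2:58754934-58755183 (plus strand), before a start inside the span of the gene.
Ada: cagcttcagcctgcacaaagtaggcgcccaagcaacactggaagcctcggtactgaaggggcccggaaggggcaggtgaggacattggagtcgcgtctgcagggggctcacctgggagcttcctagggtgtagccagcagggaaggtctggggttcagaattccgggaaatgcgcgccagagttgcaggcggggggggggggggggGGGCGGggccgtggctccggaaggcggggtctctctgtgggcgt
Nt5e: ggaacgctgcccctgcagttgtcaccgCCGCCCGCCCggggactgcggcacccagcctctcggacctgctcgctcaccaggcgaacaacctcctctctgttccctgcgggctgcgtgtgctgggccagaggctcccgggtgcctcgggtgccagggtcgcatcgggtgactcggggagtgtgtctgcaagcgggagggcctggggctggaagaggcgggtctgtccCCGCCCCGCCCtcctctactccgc
Upp2: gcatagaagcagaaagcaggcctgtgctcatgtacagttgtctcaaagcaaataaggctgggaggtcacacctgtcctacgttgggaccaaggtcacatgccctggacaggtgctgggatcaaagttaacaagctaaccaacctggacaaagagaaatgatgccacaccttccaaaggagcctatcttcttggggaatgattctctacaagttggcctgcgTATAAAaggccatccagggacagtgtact

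The motifs searched on both strands were the Sp1 box GGGCGG, the TATA box TATAAA, the forkhead site GTAAACA, the arm AGAACA of the palindromic glucocorticoid response element, the E-box CACGTG and the cAMP response element TGACGTCA. The Ada window held 1 Sp1 box, which ended 39 bases before the start. The Nt5e window held 4 Sp1 boxes on the opposite strand, overlapping in pairs. The Upp2 window held a TATA box 24 bases before the start and no Sp1 box. The window of the other Upp2 start in the table, chr2:58567084-58567333, is not printed and held 3 Sp1 boxes and no TATA box. Sp1 boxes were present in 32.7% of 32851 mouse promoter windows of this length, and TATA boxes in 12.4%. The forkhead site (3.17% of windows), the glucocorticoid element arm (16.1%), the E-box (6.02%) and the cAMP response element (1.55%) had no match in these 3 windows.

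The dissected tissue carried the markers of striatal medium spiny neurons at high level. On the log2 RMA scale (log2 expression values after the RMA method) the dopamine receptor Drd1 averaged 12.5, proenkephalin (Penk) 13.7 and DARPP-32 (Ppp1r1b) 12.1 over the 45 arrays, against array medians of 6.94 to 6.96. Markers of cortical pyramidal neurons varied widely between arrays: their mean deviation ran from -0.81 to 1.14 among the CIE arrays at 0 h, and from -1.001 to 0.48 among those of Ctrl. At the same time the medium spiny marker mean ran from -0.46 to 0.23 in CIE and from -0.09 to 0.21 in Ctrl. None of the 16 measured medium spiny or 9 cortical markers passed the test at 0 h. Of other cell types, 2 of 13 microglia markers (P2ry12 and Fcrls) and 1 of 8 pericyte markers (Vtn) passed as lower in CIE at 0 h, and 1 of 12 astrocyte markers (Gjb6) and 1 of 11 endothelial markers (Slc2a1) passed as higher. Counted whether passing or not, positive differences at 0 h were found for 1 of 13 microglia markers (median -0.19) and 0 of 8 pericyte markers (median -0.28). The same count was 5 of 12 for astrocytes, 4 of 11 for endothelium and 1 of 9 for oligodendrocytes. No marker of oligodendrocytes, meninges, choroid plexus or red blood cells passed. The part of these cells in the changes below was not tested. In bulk tissue, fewer cells of a type and less RNA per cell cannot be told apart.

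The changes of the members lay in the breakdown enzymes and early after exposure. With limma and a Benjamini-Hochberg adjusted p of 0.01 or less, the threshold of the study, 4 of the 16 probesets passed at 0 h, all higher in CIE: Ada, Xdh and 2 probesets of Upp2. Over all 45037 probesets 1.59% passed at 0 h in either direction and 0.973% were higher in CIE. At 8 h only Xdh passed, again higher in CIE, where 0.0622% of all probesets passed and 0.0311% were higher. These values at 0 h and 8 h were used to choose the genes and are a description, so neither they nor their recomputed versions carry p-values or count as support.

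Ada, which removes adenosine, had the largest change. In the Ctrl arrays at 0 h its log2 value ran from 5.19 to 5.71 with a median of 5.43. The CIE arrays at 0 h ran from 5.79 to 7.72 with a median of 6.58. Every CIE array thus lay above every Ctrl array, but the CIE arrays were themselves split: replicates 5, 17 and 26 lay at 7.03, 7.39 and 7.72, and replicates 43, 67 and 72 at 6.14, 5.93 and 5.79. Ctrl averaged 5.44 ± 0.22 (SD, n = 6), whereas CIE averaged 6.67 ± 0.82 (SD, n = 6), which gave a difference of 1.22 (SE 0.239), or 2.33-fold. Arrays hybridized together were inferred from values they share exactly. Within the 5 such sets that held both kinds of array at 0 h, the difference ran from 0.56 to 2.07. Where these sets entered the model as a block, it was 1.20 and no longer passed.

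At 8 h the Ada values of the CIE arrays were 6.14, 6.15, 6.34, 6.37 and 6.60. Those of the Ctrl arrays were 4.98, 5.40, 5.41, 5.54 and 5.83. The groups again did not overlap, and the CIE arrays lay close together (SD 0.187). The difference was 0.89 (SE 0.262) and did not pass. In the 5 sets with both kinds of array it ran from 0.54 to 1.19. With groups that did not overlap, the sign in each set was fixed. Groups of Ada and Xdh did not overlap at either time. Of all probesets, 0.777% lay higher in every CIE array at 0 h and 0.953% at 8 h.

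By 72 h Ada was at 5.40, 5.53, 5.69, 5.93 and 6.40 in CIE and between 5.37 and 6.50 in Ctrl. At 7 d it ran from 5.36 to 5.96 in CIE and from 5.11 to 6.31 in Ctrl. The groups overlapped fully at both times. The differences were 0.01 (SE 0.251, limma adjusted p = 0.997) at 72 h and -0.06 (SE 0.239, adjusted p = 1.00) at 7 d. With the arrays of both late times combined, Ada differed by -0.03 with a 95% interval from -0.38 to 0.32 (adjusted p = 0.997). In order of group means, CIE 0 h (6.67) and CIE 8 h (6.32) stood first and the other 6 groups followed between 5.43 and 5.79. The SDs within those 6 groups ran from 0.224 (Ctrl 0 h) to 0.437 (Ctrl 72 h).

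Xdh, which makes urate, was narrower in its spread among the CIE arrays of 0 h (SD 0.187). At 0 h the CIE arrays ran from 7.99 to 8.48 (median 8.30) and the Ctrl arrays from 7.40 to 7.80 (median 7.59). At 8 h the CIE values were 8.37, 8.37, 8.56, 8.57 and 8.68, and the Ctrl values were 7.22, 7.41, 7.65, 7.66 and 8.05. Every CIE array was above every Ctrl array at both times. The difference was 0.68 (SE 0.110, 1.60-fold) at 0 h and 0.92 (SE 0.121, 1.89-fold) at 8 h, and the change at 8 h minus the change at 0 h was 0.24 with a 95% interval from -0.09 to 0.57. In the 5 sets with both kinds of array it ran from 0.41 to 1.05 at 0 h and from 0.32 to 1.46 at 8 h.

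Xdh was back among the Ctrl values at 72 h. Its CIE values there were 7.54, 7.55, 7.63, 7.64 and 7.97, with Ctrl between 7.57 and 8.03, and at 7 d CIE ran from 7.34 to 7.69 and Ctrl from 7.36 to 7.91. The differences were -0.08 (SE 0.115, limma adjusted p = 0.894) and -0.05 (SE 0.110, adjusted p = 1.00). For both late times together the 95% interval was -0.23 to 0.09 (adjusted p = 0.979). The order of group means began with CIE 8 h (8.51) and CIE 0 h (8.28), and the other 6 groups lay between 7.54 and 7.75. The SDs within those 6 groups ran from 0.122 (CIE 7 d) to 0.312 (Ctrl 8 h).

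Upp2, uridine phosphorylase 2, was read by 3 probesets. For the brightest of them the CIE arrays at 0 h ran from 6.28 to 7.18 (median 7.02) and the Ctrl arrays from 5.87 to 6.65 (median 6.02). CIE replicate 17, at 6.28, and Ctrl replicate 74, at 6.65, made the groups overlap, and 4 of 6 CIE arrays were above the highest Ctrl array. The difference was 0.75 (SE 0.149, 1.68-fold). It was positive in 4 of 5 sets and ran from -0.09 to 1.32 among them. It no longer passed with the sets as a block (0.72), with array weights (0.67) or with marker means as covariates (0.65). The dimmest probeset ran from 4.54 to 5.38 in CIE and from 3.95 to 4.82 in Ctrl and differed by 0.82 (SE 0.145), and the remaining one differed by 0.40 (SE 0.149) and did not pass.

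The 8 h values of the brightest Upp2 probeset were 6.01, 6.27, 6.38, 6.51 and 7.03 in CIE and 5.96, 5.98, 6.07, 6.15 and 6.31 in Ctrl. The groups overlapped, 3 of 5 CIE arrays were above the highest Ctrl array, and replicate 15 stood at the top. The difference was 0.35 (SE 0.164), and it was 0.20 without that array. The other Upp2 probesets differed by 0.45 and 0.28 at 8 h, and none of the 3 passed. At 72 h the 3 differences were 0.18, 0.19 and 0.07 (limma adjusted p from 0.815 to 0.934), and at 7 d they were 0.04, -0.00 and -0.08 (adjusted p = 1.00 for each). By the brightest probeset CIE 0 h (6.86) stood apart from the other means, of which CIE 8 h (6.44) was the next and the remaining 6 lay between 6.02 and 6.21.

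**Figure D1:**
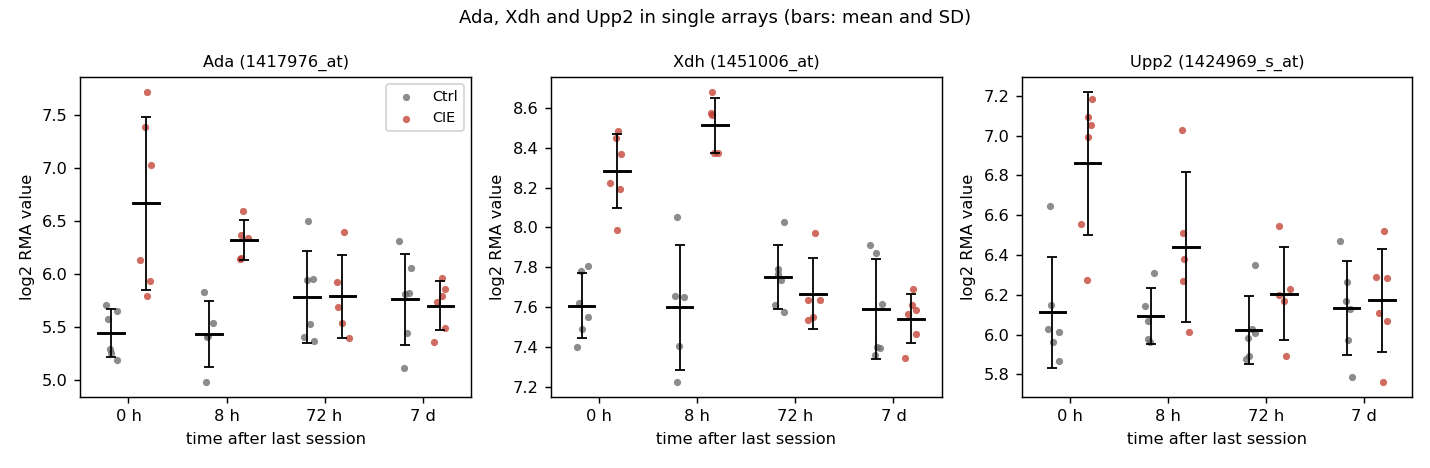
Log2 RMA values (y axis) of Ada, Xdh and the brightest Upp2 probeset in each array (points) at each time after the last session (x axis), Ctrl in grey and CIE in red, with mean and SD as bars. At 0 h and 8 h all CIE points of Ada and Xdh lie above all Ctrl points, and at 72 h and 7 d the groups overlap for all 3 genes.

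Nt5e, which makes extracellular adenosine, showed values in the same direction that did not pass. The CIE values at 0 h of its brightest probeset had a median of 9.09 and a highest value of 9.40, and the Ctrl values ran from 8.09 to 8.65. Replicate 72 of CIE was at 7.75, below every Ctrl array, whereas the other 5 CIE arrays (8.66 to 9.40) were above every Ctrl array. The difference was 0.51 (SE 0.175, 1.42-fold), and without replicate 72 it was 0.73 and passed. At 8 h the CIE values were 8.45, 8.53, 8.71, 8.88 and 9.07 and the Ctrl values 8.01, 8.14, 8.14, 8.50 and 8.55, a difference of 0.46 (SE 0.192) with 3 of 5 CIE arrays above all Ctrl arrays.

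A second Nt5e probeset differed by 0.19 (SE 0.0807) at 0 h and by 0.30 (SE 0.0884) at 8 h, and the third and dimmest by 0.05 and -0.00. At 72 h the brightest probeset differed by -0.15 (SE 0.183, limma adjusted p = 0.879) and at 7 d by -0.16 (SE 0.175, adjusted p = 1.00). Its 95% interval for both late times together was -0.41 to 0.10 (adjusted p = 0.976). CIE 0 h (8.85) and CIE 8 h (8.73) had the highest means and the other 6 groups lay between 8.27 and 8.49. The SDs within those 6 groups ran from 0.0907 (CIE 72 h) to 0.338 (CIE 7 d).

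Nt5e moved with the cell type markers from array to array. After group means were taken out, its deviations over the 45 arrays were related to the mean of the medium spiny markers (Pearson r = 0.67, permutation p = 4e-05, adjusted p = 0.0004 over 20 relations; Spearman rho = 0.69, permutation p = 2e-05, adjusted p = 0.0002) and inversely to the mean of the cortical markers (r = -0.73, permutation p = 2e-05, adjusted p = 0.0004; rho = -0.77, permutation p = 1e-05, the smallest that 100000 permutations give, adjusted p = 0.0002). Without the 2 farthest arrays the values of r were 0.65 and -0.76. In the 23 arrays of 72 h and 7 d alone they were 0.69 (adjusted p = 0.0143) and -0.79 (adjusted p = 0.0002). CIE replicate 72 at 0 h, the array with the lowest Nt5e value, had the lowest medium spiny mean (-0.46) and the highest cortical mean (1.14) of its group. With both marker means, computed without member genes, as covariates in the limma model, the difference of Nt5e was 0.73 at 0 h, 0.51 at 8 h and -0.02 at 72 h. The relations with these markers were chosen after the values were seen.

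**Figure D2:**
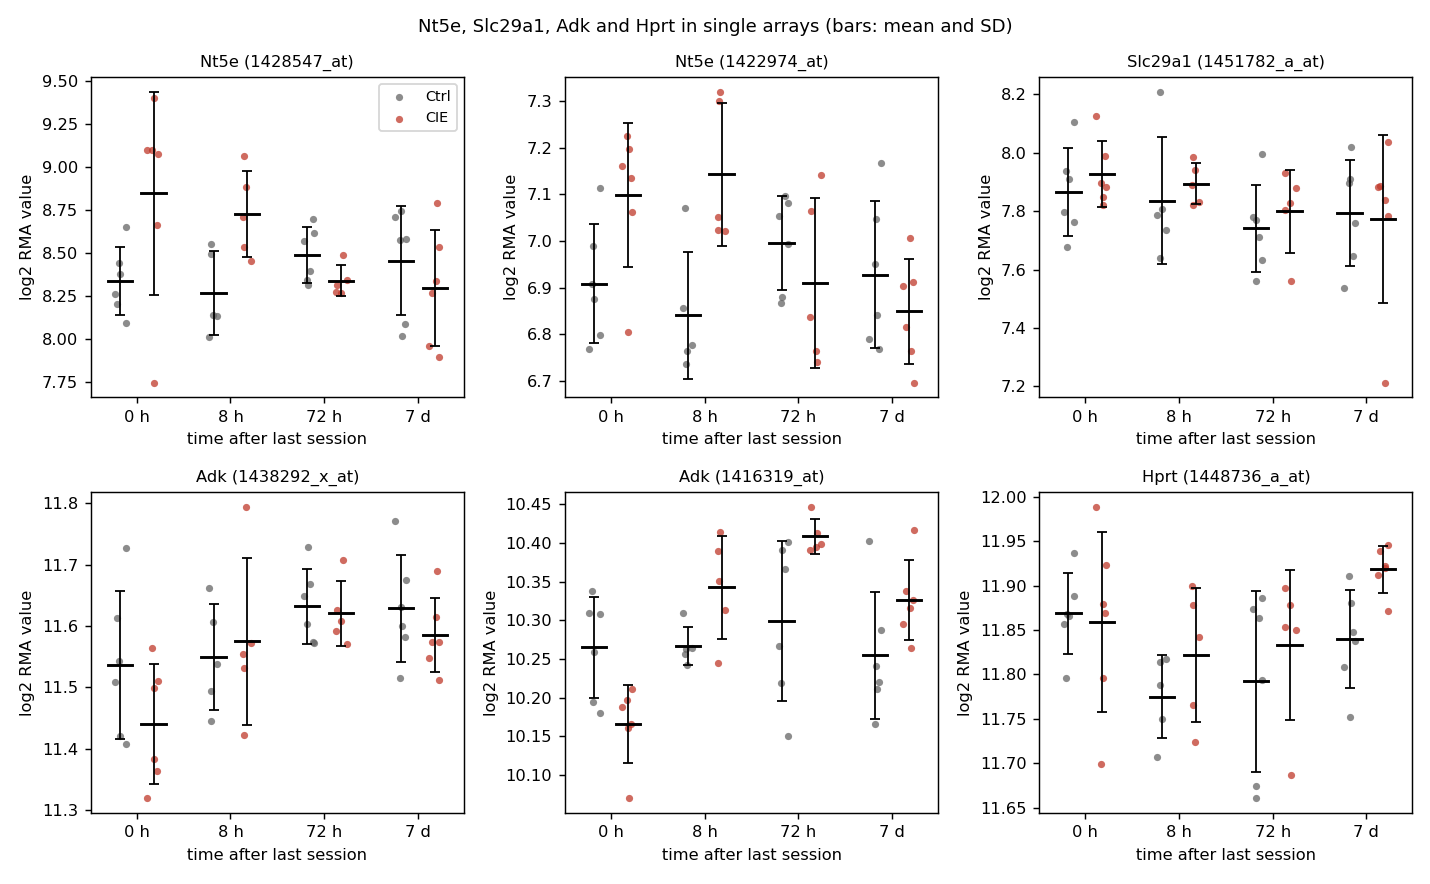
Log2 RMA values (y axis) in each array (points) for the 2 brighter probesets of Nt5e, for Slc29a1, for the 2 brighter probesets of Adk and for Hprt at each time (x axis), with mean and SD as bars and a separate y range in each panel. The low CIE point of Nt5e at 0 h, at 7.75, is replicate 72, the CIE and Ctrl ranges of Slc29a1, Adk and Hprt overlap at every time, and the low CIE point of Slc29a1 at 7 d, at 7.21, is replicate 13.

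Slc29a1, the ethanol-sensitive adenosine transporter, had differences near 0 at each time. Its CIE arrays ran from 7.82 to 8.13 (median 7.89) and its Ctrl arrays from 7.68 to 8.10 (median 7.85) at 0 h. The difference was 0.06 at each of the first 3 times, with 95% intervals of -0.14 to 0.26, -0.16 to 0.28 and -0.15 to 0.27, and -0.02 (-0.22 to 0.18) at the last. None passed, and a change of the size seen for Ada or Xdh at 0 h lay outside these intervals.

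Adk, the kinase that salvages adenosine, had 6 probesets. The brightest ran from 11.3 to 11.6 in CIE and from 11.4 to 11.7 in Ctrl at 0 h, a difference of -0.10 (SE 0.0546). The next had a CIE range of 10.07 to 10.21 and a Ctrl range of 10.18 to 10.34 and differed by -0.10 (SE 0.0413). This probeset then differed by 0.08 at 8 h, 0.11 at 72 h (SE 0.0433, limma adjusted p = 0.673) and 0.07 at 7 d (adjusted p = 1.00). None of the 6 passed at any time, and over all times their differences stayed between -0.15 and 0.11. Over 72 h and 7 d combined, 1 of the 16 member probesets had an unadjusted limma p under 0.05, this Adk probeset, at 0.09 (95% interval 0.03 to 0.15, adjusted p = 0.976). Over all probesets 5% had an unadjusted p under 0.05 in that comparison, and 0 passed.

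Hprt, which recycles hypoxanthine before Xdh can oxidise it, ran from 11.70 to 11.99 in CIE and from 11.80 to 11.94 in Ctrl at 0 h, and differed by -0.01 (SE 0.0447). Its differences were 0.05 at 8 h, 0.04 at 72 h (adjusted p = 0.868) and 0.08 at 7 d (adjusted p = 1.00). The 7 d values were 11.87 to 11.95 in CIE and 11.75 to 11.91 in Ctrl, with 5 of 6 CIE arrays above the highest Ctrl array.

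**Figure D3:**
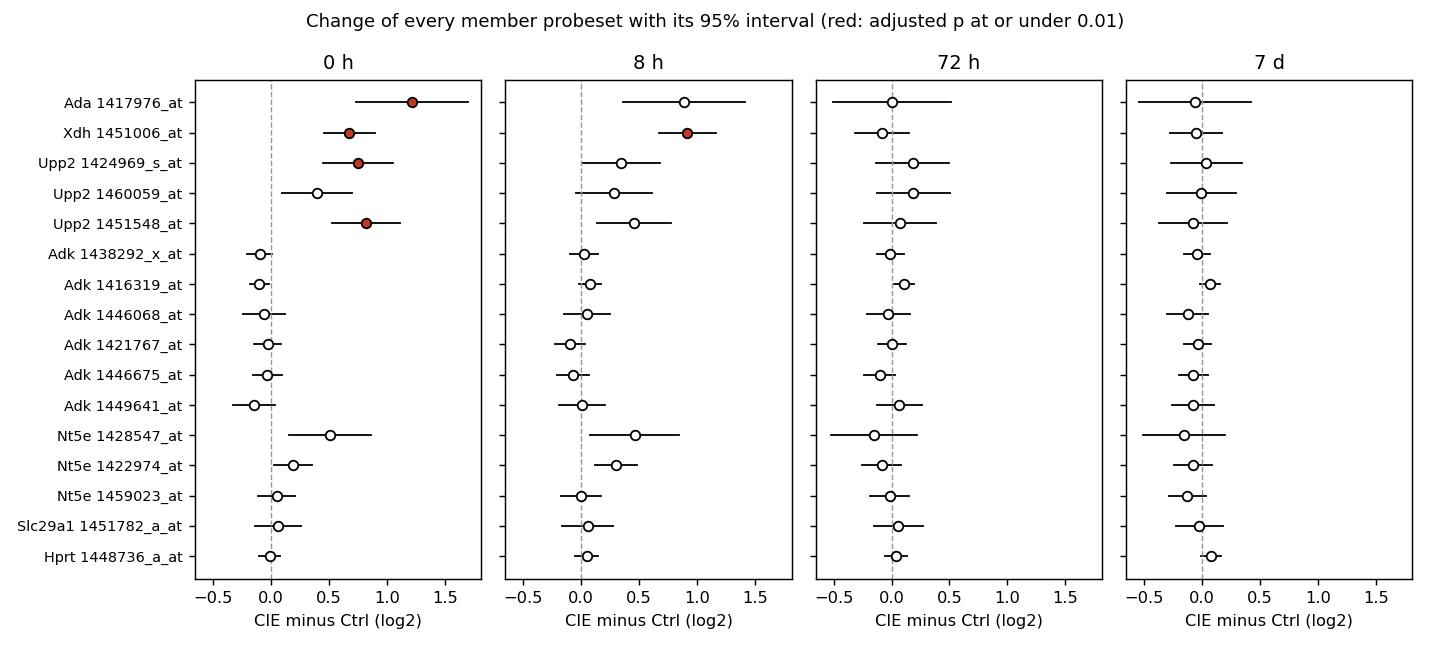
CIE minus Ctrl on the log2 scale (x axis) with its 95% interval for each of the 16 member probesets (y axis) at the 4 times, with red points for an adjusted p of 0.01 or less. The 4 red points at 0 h and the single red point at 8 h belong to Ada, Xdh and Upp2, and no point is red at 72 h or 7 d.

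Counted together, 9 of the 16 probesets had a positive difference at 0 h and 13 at 8 h, and then 9 and 3 at the later times. The median difference was 0.06 at 0 h and 0.07 at 8 h, and 0.00 and -0.05 at the later times, beside medians over all probesets of 0.00, 0.00, 0.02 and -0.00. No member passed limma's test at 72 h or 7 d, where 0% of all probesets passed. An unadjusted p under 0.05 was found for 1 and 0 members at these times, beside 7.2% and 2.34% of all probesets.

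No change of a member over time in Ctrl mice was detected among those tested. The F test over the 4 times within Ctrl passed for 0.233% of all probesets and for no probeset of Adk, Nt5e, Slc29a1 or Hprt, with adjusted p from 0.676 to 0.978. The Ctrl means of Ada ran from 5.43 to 5.78 (72 h minus 0 h 0.34, 95% interval -0.15 to 0.82), those of Xdh from 7.59 to 7.75, and those of the brightest Upp2 probeset from 6.02 to 6.13.

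Ada and Xdh, which act at different steps of the same route, varied together between mice. Among the CIE arrays at 0 h the order from high to low was replicate 26, 17, 5, 43, 67 and 72 for both genes. Over the 45 arrays with group means taken out, r was 0.58 (permutation p = 9e-05, adjusted p = 0.0006) and rho was 0.59 (permutation p = 0.00011, adjusted p = 0.000733). It was 0.52 without the 2 arrays farthest from the median, 0.57 with hybridization set means also taken out, and 0.51 without the CIE arrays at 0 h. In the 23 arrays of 72 h and 7 d, where neither gene passed, r was 0.73 (permutation p = 0.00065, adjusted p = 0.00433) and rho was 0.75 (permutation p = 0.00016, adjusted p = 0.0016). The share of all genes as closely related to Ada or Xdh was not counted. Over the 45 arrays with group means taken out, Arrdc2 was closer to Ada (0.923) and Sult1a1 closer to Xdh (0.770).

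For Upp2 no relation with Ada or Xdh was detected. Its r was -0.07 with Ada (permutation p = 0.732, adjusted p = 0.814) and 0.12 with Xdh (permutation p = 0.42, adjusted p = 0.646), and rho was 0.02 and 0.17 (adjusted p = 0.909 and 0.529). CIE replicate 17 at 0 h had the second highest Ada value and the lowest Upp2 value of its group. Nt5e was related to Xdh with r = 0.45 (permutation p = 0.00384, adjusted p = 0.0192; rho = 0.41, adjusted p = 0.0671), and to Ada with r = 0.40 (permutation p = 0.0639, adjusted p = 0.182; rho = 0.23, adjusted p = 0.357). The latter fell to 0.06 without the CIE arrays of 0 h. Xdh was also inversely related to the cortical marker mean (r = -0.42, permutation p = 0.0065, adjusted p = 0.026; rho = -0.34, adjusted p = 0.109), while for Ada the relation was not detected (r = -0.20, adjusted p = 0.485; rho = -0.16, adjusted p = 0.529). With both marker means as covariates Ada differed by 1.17 and Xdh by 0.66 at 0 h. Adk and the astrocyte marker mean had r = 0.29 (permutation p = 0.0971, adjusted p = 0.243) and rho = 0.28 (adjusted p = 0.252).

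**Figure D4:**
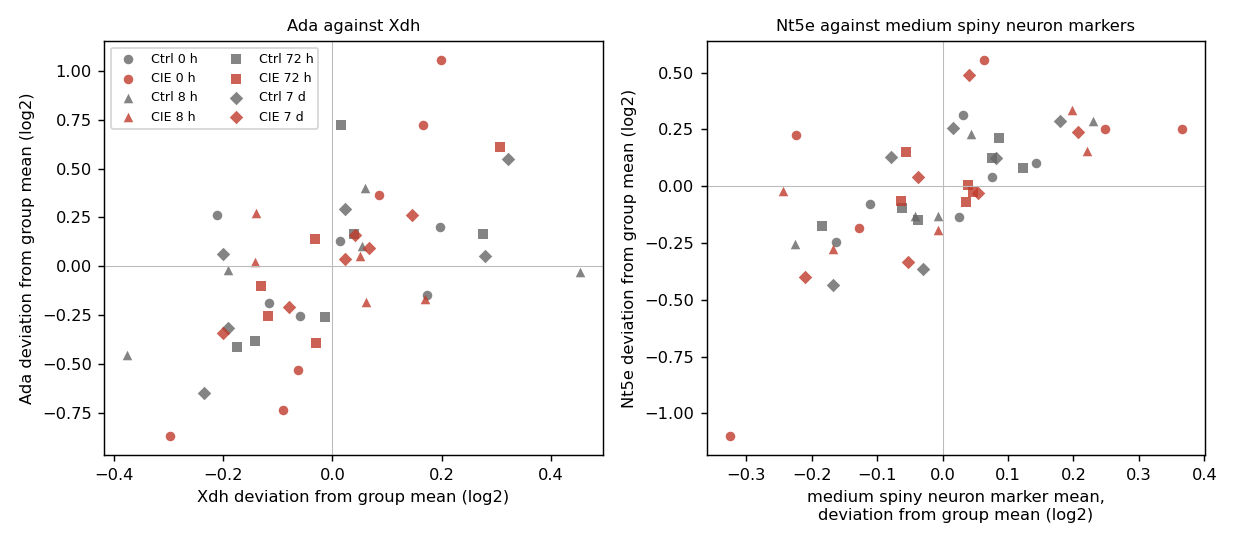
Deviations of single arrays from their group mean on the log2 scale, with Ada against Xdh (left) and Nt5e against the medium spiny neuron marker mean (right), marker shape for time and colour for Ctrl (grey) or CIE (red). The points rise together in both panels, with r of 0.58 and 0.67, and the lowest Nt5e point is CIE replicate 72 at 0 h.

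The probesets most like Ada over the 45 arrays, at the brightest probeset of each gene, were those of Arrdc2 (r = 0.917), Rhoj (0.881) and Gm9895 (0.880). After group means were taken out they were Arrdc2 (0.923), Ddc (0.900) and Rhoj (0.889). Xdh was most like the lipid droplet protein Plin4 (0.898), the glucocorticoid-induced Tsc22d3 (0.877) and Pnpla7 (0.873), and without group means like Sult1a1 (0.770), Arid5b (0.749) and Cyp4f13 (0.740). Upp2 was most like Slc7a6 (0.858), Elovl4 (0.833) and Arfip2 (0.833), and without group means like Itsn1 (0.829), Elovl4 (0.821) and Inca1 (0.796). The 3 lists had no gene in common. They were picked for their size among 18193 genes and carry no test.

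Other enzymes, transporters and receptors of the same metabolism were examined as lists. Of 119 listed genes of purine and pyrimidine metabolism, transport and signalling, 105 were measured, and 2 passed at 0 h (1.9%, beside 1.93% of all genes at their brightest probeset). Entpd7, an ecto-nucleotidase family member that acts on nucleoside triphosphates, rose by 0.35 (SE 0.0769, limma adjusted p = 0.00468). P2ry12, the ADP receptor of microglia, fell by 0.48 (SE 0.0910, adjusted p = 0.00103). None of the 105 passed limma's test at a later time, where 0.0824% of all genes passed at 8 h and 0% thereafter.

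Entpd7 ran from 7.39 to 7.75 in CIE and from 7.09 to 7.53 in Ctrl at 0 h. It passed in 39 of the 45 fits that left out 1 array, but leaving out an array of another time could not change its difference. The failures all came from the 6 CIE and 6 Ctrl arrays of 0 h. It failed without CIE replicate 5, 26 or 72 or Ctrl replicate 30, 38 or 74 (adjusted p up to 0.0224). It also failed with array weights (adjusted p = 0.0195), under the block on sets (0.0152), with marker means as covariates (0.0226) and with only the arrays of 0 h (0.105). P2ry12 ran from 9.07 to 9.60 in CIE and from 9.56 to 9.98 in Ctrl and passed in all 45, but not with only the arrays of 0 h (adjusted p = 0.0593). P2ry12 is also a microglia marker: 2 of the 13 microglia markers measured passed at 0 h, both lower (P2ry12 and Fcrls), and the mean over that list ran from -0.49 to -0.11 in CIE and from -0.15 to 0.25 in Ctrl. The part of microglia in its fall was not tested.

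In purine breakdown and salvage none of 22 genes passed at 0 h. Pnp, which splits the inosine that Ada makes, differed by -0.26 (SE 0.0704, adjusted p = 0.0230), running from 9.37 to 9.75 in CIE and from 9.70 to 10.05 in Ctrl. Aprt, which recycles adenine, differed by 0.21 (adjusted p = 0.0397), and the nucleotidase Nt5c by 0.20 (adjusted p = 0.0867). The list had a median difference of 0.05, with 13 of 22 above 0. The difference of Pnp was opposite in sign to those of Ada and Xdh, the steps on either side of it.

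Among 14 receptors for ATP and ADP, P2ry13 differed by -0.39 (SE 0.110, adjusted p = 0.0316) at 0 h without passing. P2ry13 also stood in the microglia marker list, and the part of microglia in its difference was not tested. The 17 genes of adenosine receptors and striatal cAMP signalling had a median difference of -0.13, with 4 above 0, and none passed. The only adenosine receptor gene among them was Adora3, which was dim (5.21 to 5.72 in Ctrl at 0 h). Adora2b was not measured, so the list describes the signalling genes and not the receptors. Of these 17, 5 (Gnal, Gng7, Adcy5, Pde10a and Ppp1r1b) also stood in the medium spiny marker list, whose 16 genes had a median of -0.19 with 1 above 0. Its part in the shift was not tested. None of 12 genes of de novo purine synthesis (median 0.02) or 16 of pyrimidine breakdown and salvage (0.01) passed. Nor did any of the 10 genes of extracellular nucleotide breakdown other than Entpd7, or of 4 other nucleoside transporters (0.02). The corresponding median over all genes at their brightest probeset was 0.02.

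Xdh needs the molybdenum cofactor, and the genes that make or use that cofactor were examined as a list of 9. None passed at any time, and the sulfite oxidase Suox, with the smallest p at 0 h, differed by 0.23 (adjusted p = 0.0612). Aldehyde oxidase Aox1, a molybdenum enzyme related to Xdh, was singled out after its values were seen. At 8 h it lay between 9.59 and 9.91 in CIE and between 9.05 and 9.49 in Ctrl, without overlap, a difference of 0.49 (SE 0.134) that did not pass (adjusted p = 0.130), and at 0 h it differed by -0.26 (adjusted p = 0.264).

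Aox1 also changed over time in Ctrl mice, which had air and pyrazole. Time after the last session and time since pyrazole cannot be told apart in these groups. Its Ctrl arrays lay between 9.05 and 9.69 over the early times (0 h and 8 h). They ran from 8.01 to 8.44 at 72 h and from 7.65 to 8.44 at 7 d. It fell by 1.27 (SE 0.123, adjusted p = 2.62e-08) from 0 h to 72 h and by 1.44 (SE 0.123, adjusted p = 6.28e-10) from 0 h to 7 d. It was the only gene of the 105 that passed the F test over time within Ctrl (adjusted p = 9.29e-12). The CIE arrays lay between 8.74 and 9.46 at 0 h, between 8.14 and 8.56 at 72 h and between 7.55 and 8.20 at 7 d. Over the same times the Ctrl mean of Xdh changed by 0.14 and -0.02.

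At 72 h, all 16 genes of pyrimidine breakdown and salvage had positive differences, with a median of 0.10 and none passing. Of the 105 genes 82 were then above 0, and the median over all genes was 0.03. The 9 genes of the molybdenum list were also all above 0, whereas 8 of 14 receptors for ATP and ADP were. All 9 cortical pyramidal markers were above 0 as well (median 0.28), and their part in the shift was not tested. At 7 d, 8 of the 16 pyrimidine genes were above 0.

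**Figure D5:**
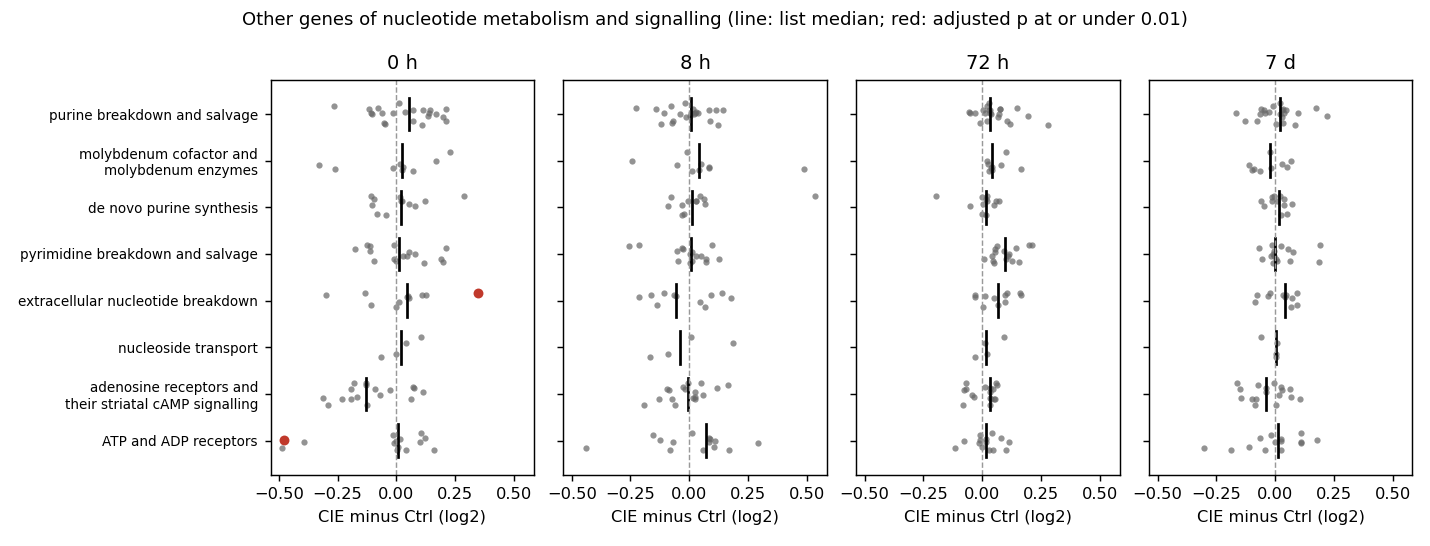
CIE minus Ctrl on the log2 scale (x axis) for the 105 other genes of nucleotide metabolism and signalling (points) by list (y axis) at the 4 times, with list medians as lines. The red points, which passed at 0 h, are Entpd7 at 0.35 and P2ry12 at -0.48.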

How the data were processed

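Affymetrix mouse expression arrays were used, 1 per mouse and 45 in all. The table deposited by the authors holds log2 RMA values. In their methods, background correction and quantile normalization were done within hybridization batches, followed by quantile normalization over all arrays and by ComBat, a batch adjustment. Such steps can shrink true differences between batches. No further transformation or filter was applied. The number of arrays limits the precision, and no detection calls were used. Columns of other samples numbered 0.

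Sample labels gave the groups, and nothing in them ties arrays to litters or batches. The platform annotation gave 34945 of 45037 probesets 1 symbol (18193 genes), 932 several and 9160 none, and 34741 of the first were found in the RefSeq table of GRCm38.p6, which gave positions and promoter sequences. Where a gene had several probesets, the brightest (highest mean over 45 arrays) stood for it in lists and relations.

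A limma model (limma 3.58.1, R 4.3.3) with a mean for each of 8 groups was fitted to all probesets, with Benjamini-Hochberg adjustment within each contrast and the study's threshold of 0.01. Fits were tested on simulated data first. Relations were Pearson and Spearman correlations of deviations from group means with 100000 two-sided permutations within groups (scipy 1.17.1), adjusted over 20 relations, of which 16 were added after the values were seen. The planned relations of Adora1 and Adora2a could not be run. The members and gene lists were chosen with earlier results of these data known. Named genes were the members, the pathway genes that passed, the 5 others with the smallest p at 0 h, and the 3 genes most like Ada, Xdh and Upp2. Aox1 was added later.

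Arrays that shared at least 5 exactly equal values (tolerance 2e-08) were taken as 6 hybridization sets of 6 to 8 arrays, and Ctrl 0 h replicate 20 fell in none. Each set held at most 1 array of a group. Alternatives were these sets as a block, renormalization, median centring, array weights, trend and robust options, marker covariates, bright probesets only, the arrays of the compared time only, and leaving out each array.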

Additional observations from a re-analysis of the deposited data

Results flagged for a closer look

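Of 128 sets of values tested (16 probesets in 8 groups), 10 held an array whose gap to its neighbour was large for the range of its group, and chance gives about 1 in 20. At 72 h, CIE replicate 63 was high for Xdh (7.97, the others 7.54 to 7.64) and low for Hprt (11.69, the others 11.85 to 11.90), and CIE replicate 3 was high for the dimmest Nt5e probeset (5.11, the others 4.81 to 4.86). The brightest Upp2 probeset was high in Ctrl replicate 74 at 0 h (6.65, the others 5.87 to 6.15) and in Ctrl replicate 34 at 72 h (6.35, the others up to 6.03). A second Upp2 probeset was high in Ctrl replicate 62 at 7 d (6.10). Adk was low in CIE replicate 26 at 0 h (10.07, the others 10.16 to 10.21) and, in 2 of its 4 dim probesets at 5.27 and 4.34, in Ctrl replicate 52 at 72 h, whereas in another dim probeset this array was the highest of its group (4.32). Slc29a1 was low in CIE replicate 13 at 7 d (7.21, the others 7.78 to 8.04).

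The change of P2ry12 was -0.48 at 0 h and 0.18 at 7 d. The change at 7 d minus the change at 0 h was 0.66 (limma interaction contrast, adjusted p = 0.00559). P2ry12 was named because it passed at 0 h, and this contrast contains that same difference. Its p is affected by that choice and does not count as separate support.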

How the results depend on the processing

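With 4 member probesets passing at 0 h, 3 passed with array weights, 2 (Xdh and 1 probeset of Upp2) with hybridization sets as a block, 1 among bright probesets only (Ada and Upp2 are dimmer than the median and were not tested there), and 0 when only the 12 arrays of 0 h were used. At 8 h the 1 passing member, Xdh, did not pass (0 members) with only the arrays of 8 h. The share of all probesets that passed under each alternative is not given here. A loss particular to the members can therefore not be told from a general loss of passing probesets. Of the other pathway genes, 2 passed at 0 h, 1 with the sets as a block and 1 with array weights (Entpd7 was lost in both), and 0 with only the arrays of 0 h. Entpd7 was also lost with marker means as covariates. Leaving out single arrays gave between 1 and 2 of these genes. P2ry12 passed in each of those fits and Entpd7 in 39 of 45. Every failure of Entpd7 came from leaving out an array of 0 h, the only arrays that could change its difference. With marker means as covariates 4 members passed, with Nt5e in place of the brightest Upp2 probeset. No difference of a member that passed changed sign. Over all 16 probesets and 4 times, 2879 of 2880 fits that left out 1 array kept their side of the threshold. Under other settings 464 of 476 did without a larger shift. Another 2 of these fits, of differences that had not passed, kept their side but moved beyond the spread between arrays. The high counts were largely set in advance, since leaving out an array of another time keeps a difference unchanged and most differences lay far from the threshold. The counts therefore say little about the differences that passed. By replicate number, no paired analysis was possible because the numbers name mice and none was shared between groups. The inferred hybridization sets gave the within-set differences and the block fit instead. Signal over background was not assessed, since no detection calls were used. The single, dim Ada probeset and the dim Upp2, Adk and Nt5e probesets are limited by this.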
